A study of Mus musculus with 4 samples.

Results

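Siglecs are receptors of the immunoglobulin superfamily that bind sialic acids, the acidic sugars that end many glycan chains on cells and secreted proteins. The genes described here are 8 mouse Siglec genes, Cd33, Siglece, Siglecf, Siglecg, Siglech, Siglec1, Cd22 and Siglec15, and the phosphatase genes Ptpn6 and Ptpn11. They were taken by gene symbol from the deposited mm10 gene table, which held all 10 of them among 45777 genes. Their messenger RNA was measured by RNA-seq in MG5, a microglial cell line of the mouse labelled WT, whose medium was in part conditioned by astrocyte-like A1 cells. In 2 libraries, replicates 1 and 3, the cells had been given 10 µM of 6OHA for 6 h, a compound known here only by this code name that activates the retinoid X receptor (RXR). The other 2 libraries, replicates 1 and 2 of the control, came from untreated cells, and the labels state neither a solvent nor separate cultures. Each p-value below therefore rests on a spread between libraries that may be technical only.

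Many Siglecs carry immunoreceptor tyrosine-based inhibitory motifs (ITIMs) in their cytoplasmic tails. When Src family kinases phosphorylate an ITIM, the motif can recruit the tyrosine phosphatases encoded by Ptpn6 and Ptpn11, which counteract activating signals. Other Siglecs lack an ITIM and pair with the activating adaptor protein encoded by Tyrobp. Microglia carry Siglecs on their surface, and the human CD33 gene lies at a risk locus for late-onset Alzheimer's disease. The mouse proteins of the CD33-related group are encoded by Cd33, Siglece, Siglecf, Siglecg and Siglech. They differ from their human relatives in number and in their tails, which were not examined here.

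Of the 5 CD33-related genes, 4 lie close together on chromosome 7, and the start regions of Cd33 and Siglecf share sequence. These 2 start regions are shown because the genes differ widely in level, as described below, while their start regions have stretches in common. RefSeq windows on GRCm38.p6, from 250 bases before to 50 bases after an annotated start, were found for 8 of the 10 genes, the exceptions being Siglec1 and Siglec15. The windows of Cd33 (chr7:43533122-43533421, minus strand) and Siglecf (chr7:43351091-43351390, plus strand) read as follows from 5′ to 3′, with stretches of at least 12 bases found in both in capitals.
Cd33: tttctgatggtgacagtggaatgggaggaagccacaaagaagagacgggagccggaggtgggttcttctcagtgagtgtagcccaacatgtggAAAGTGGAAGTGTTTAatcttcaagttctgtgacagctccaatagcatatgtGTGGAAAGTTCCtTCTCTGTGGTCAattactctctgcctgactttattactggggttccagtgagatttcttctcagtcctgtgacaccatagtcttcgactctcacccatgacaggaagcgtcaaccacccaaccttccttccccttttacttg
Siglecf: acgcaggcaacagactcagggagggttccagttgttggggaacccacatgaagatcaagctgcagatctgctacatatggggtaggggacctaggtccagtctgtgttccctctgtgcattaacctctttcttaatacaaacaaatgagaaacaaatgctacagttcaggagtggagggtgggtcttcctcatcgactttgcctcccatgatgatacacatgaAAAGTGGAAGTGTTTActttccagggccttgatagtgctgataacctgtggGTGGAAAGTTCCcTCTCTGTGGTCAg

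The capitals cover 40 bases in 3 stretches, the longest of 16 bases, and lie in the same order in both windows. Among 32850 other windows of the table, 292 shared at least 1 such stretch with the Cd33 window, and only that of Siglecf shared as many as 40 bases. The windows of the other 6 members with one shared no stretch of this length with it. In the Cd33 window the letters AGGTCA, a half-site that RXR and its partners bind, were absent on both strands. Only these exact letters were searched, not variants of the half-site. AGGTCA occurred in 16.3% of all 32851 windows, and among the members in that of Siglecg. The letters GAGGAA, the core that PU.1 and other ETS factors bind, occurred once in each of the Cd33 and Siglecf windows and in 28.3% of all windows. The RUNX core TGTGGT also occurred once in each, inside the last shared stretch in Siglecf and in Cd33 alike, and in 16.8% of all windows. That core lies at position -88 to the annotated start in the Cd33 window and at position 42 in that of Siglecf. The shared stretches thus lie at different distances from the starts. RefSeq annotates the Cd33 gene up to position 43537424, beyond this window, so other start sites exist.

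Total counts ran from 31057950 to 42541641 per library. A limit of 3 counts was set as a rough guide to what counting error alone allows for a count of 0. It comes to 0.0705 to 0.0966 CPM (counts scaled to a common library size) on the uncorrected totals. The upper end of an exact 95% interval for a count of 0 was higher, at 0.0867 to 0.119 CPM. All other CPM values use totals corrected by TMM (trimmed mean of M-values), which moves them slightly. All 18 microglia and macrophage markers examined were tested, of which 1, Cx3cr1, fell and 0 rose. Their summed level was 14489 and 15314 CPM in 6OHA libraries against 14136 and 15092 CPM in control libraries. Of the markers of other cells, some were at 0 in all 4 libraries, namely 3 of 9 of astrocytes (Gfap, Aqp4 and Sox9), 3 of 8 of neurons (Rbfox3, Syt1 and Stmn2), 4 of 8 of oligodendrocytes (Mog, Olig1, Olig2 and Sox10) and 5 of 6 of fibroblasts (Col1a2, Col3a1, Dcn, Pdgfra and Lum). The same held for 5 of 7 T cell markers (Cd3e, Cd3d, Cd3g, Cd8a and Trac), while Cd4 and Lck had reads and did not pass, and the list summed to 2.34 and 2.95 CPM in 6OHA against 2.49 and 2.48 CPM in control. The 4 tested oligodendrocyte markers did not pass. With all 8 markers, their list summed to 125 and 132 CPM in 6OHA against 109 and 110 CPM in control. Most of it was Mbp, whose groups lay apart with 6OHA higher (95.5 and 99.8 CPM in 6OHA against 80.2 and 77.5 CPM in control). Mag lay apart with 6OHA lower. Of 5 endothelial markers Cldn5 was at 0 and the other 4 did not pass. That list summed to 216 and 215 CPM in 6OHA against 259 and 236 CPM in control, most of it Kdr, whose groups lay apart (206 and 204 CPM in 6OHA against 249.8 and 224 CPM in control). Beyond these, 1 of the 8 neuron markers, Map2, fell, and the summed level of the 9 astrocyte markers was 15.2 and 16.9 CPM in 6OHA libraries against 22.8 and 23.5 CPM in control libraries. Of 8 neutrophil and eosinophil markers 1, S100a8, was tested and did not pass. Its groups lay apart, at 5.03 and 6.04 CPM in 6OHA against 9.44 and 7.55 CPM in control. Of 7 plasmacytoid dendritic cell markers 4 were tested and 0 passed. Their list summed to 238 and 249 CPM in 6OHA against 256 and 269 CPM in control. The part of these other cell types in the results below was not tested. In such bulk samples fewer cells of a type and less RNA per cell cannot be told apart.

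Siglec1 was the most abundant member in FPKM, fragments per length of transcript and depth of library, a scale on which genes of different length can be compared. It stood at 88.1 ± 5.25 FPKM in 6OHA and 80.02 ± 4.51 FPKM in control (SD, n = 2 here and below). The phosphatase gene Ptpn6 followed at 55.9 ± 1.52 FPKM in 6OHA and 60.4 ± 0.885 FPKM in control. Cd33 came next, then Ptpn11 at 24.8 ± 0.562 FPKM in 6OHA and 25.02 ± 1.78 FPKM in control. Lower levels were found for Cd22, at 11.6 ± 0.530 FPKM in 6OHA and 14.2 ± 1.17 FPKM in control, and for Siglece, at 3.70 ± 0.183 FPKM in 6OHA and 4.001 ± 0.319 FPKM in control. Siglec15 followed at 2.11 ± 0.364 FPKM in 6OHA and 2.91 ± 0.173 FPKM in control. Siglecf, Siglecg and Siglech lay lowest. The order of the 10 genes was the same in both groups, and within a group the libraries of neighbouring genes did not overlap, except for Siglecg and Siglech.

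**Figure D1:**
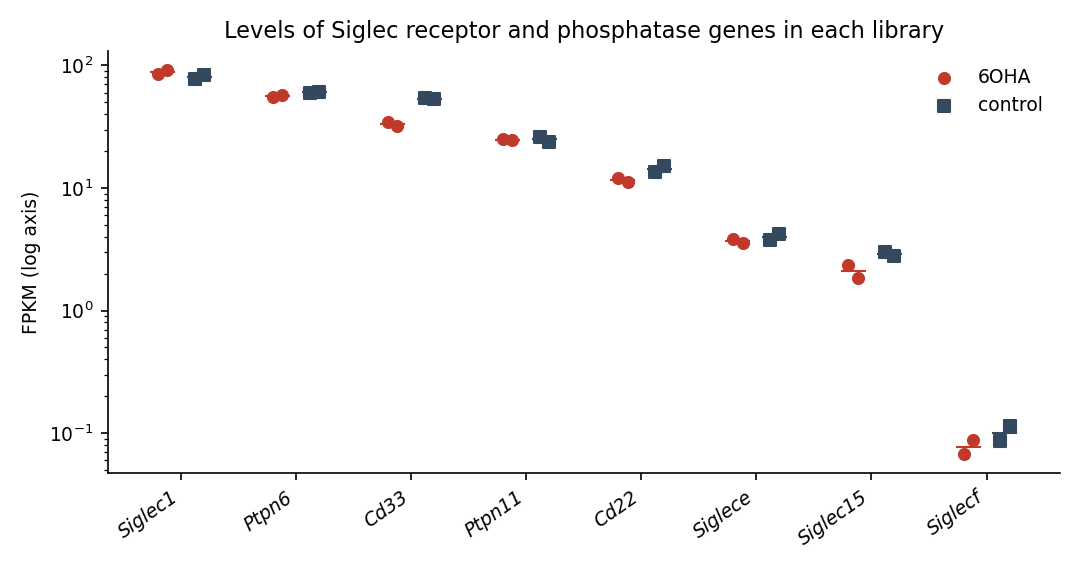
FPKM on a log axis of the 8 members above 0 in all 4 libraries, with 2 6OHA libraries (circles) left of 2 control libraries (squares) and a line at each group's mean. Cd33 stands apart between the groups, at 33.4 FPKM on average in 6OHA and 53.6 FPKM in control, while Siglecg and Siglech, not drawn, were at or near 0.

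Of the 10 members, 7 passed the filter on low counts and were tested, and 1 of them, Cd33, passed the threshold, a Benjamini-Hochberg adjusted p under 0.05 in edgeR's quasi-likelihood test over 14634 genes. It fell, and 0 members rose (0 at an unadjusted p under 0.05, and 0 with DESeq2 or limma-voom). Over all tested genes 2.02% passed, 0.629% as falls and 1.39% as rises, so that 1 of 7 is a count too small to set against this share. These shares come from 295 called genes, a count that was 120 with no filter, 769 with a GC-content offset and 500 without control replicate 2, while Cd33 was the 1 member called each time. The members' median log2 fold change was -0.13, beside -0.01 over all tested genes. In CPM the 2 groups did not overlap for 5 of the 7 tested members, of which 4 were lower and 1 higher in 6OHA, beside 38.8% of all tested genes, 20.1% lower and 18.7% higher.

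Cd33 (Entrez gene 12489, GRCm38 chromosome 7, 43527399 to 43537424) encodes a myeloid Siglec, whose human relative restrains uptake of amyloid in microglia. It had 3578 and 3798 counts in 6OHA replicates 1 and 3, against 7492 and 6024 counts in control replicates 1 and 2. Scaled for library size these were 116 and 109 CPM in 6OHA, against 175 and 174 CPM in control. Both 6OHA libraries lay below both control libraries, and the gap between the groups was far wider than the gap between libraries of a group. Cd33 was 1.55-fold lower in 6OHA (log2 fold change -0.63, SE 0.09, 95% interval -0.83 to -0.43, adjusted p = 0.00392 in edgeR's quasi-likelihood test), a level 35.4% below that of control. With any 1 library left out the log2 fold change lay between -0.68 and -0.58, and the adjusted p was at most 0.0327. By p it ranked at 21 among the 92 genes that fell, and by size of the fall at 59. Of its transcripts' distinct stretches of 31 bases, 0.922% also occur in another gene, and no other annotated gene overlaps it.

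**Figure D2:**
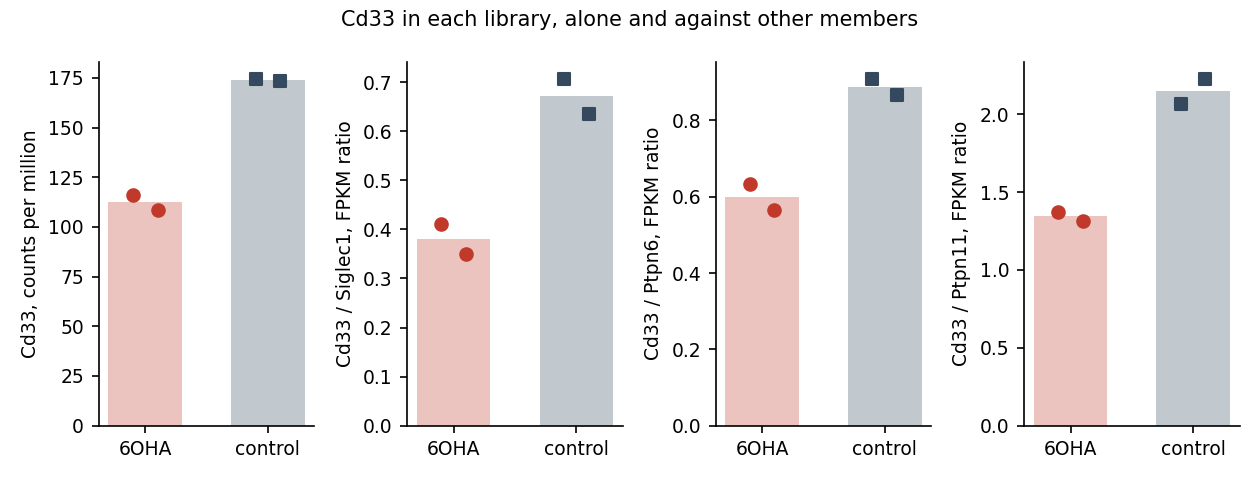
Cd33 in each library in CPM (on the axis, counts scaled to library size), and its FPKM divided by that of Siglec1, Ptpn6 and Ptpn11 in the same library; points are libraries, bars are means of 2, 6OHA left of control. In all 4 panels both 6OHA libraries lie below both control libraries.

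The same direction was seen when Cd33 was set against other members within a library, a measure that does not depend on library scaling. Such ratios reuse the reads behind the Cd33 values above, so they are no separate support for its fall. The FPKM ratio of Cd33 to Ptpn6 was 0.632 and 0.565 in 6OHA libraries, against 0.909 and 0.868 in control libraries. Its ratio to Siglec1 was 0.411 and 0.351 in 6OHA, against 0.707 and 0.636 in control. Cd33 made up 24.0 ± 1.67% of the summed FPKM of the 8 Siglec genes in 6OHA and 34.6 ± 1.72% in control. Siglec1 made up 63.3 ± 2.66% in 6OHA and 51.6 ± 1.30% in control. This share also depends on the level of Cd33 in the same sum, and Siglec1 itself did not pass. The sum itself was 137 and 141 FPKM in 6OHA, against 151 and 158 FPKM in control.

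Siglec1 (20612, chromosome 2, 131067801 to 131086778) encodes sialoadhesin, a long macrophage receptor without an ITIM that binds sialylated cells and particles. It measured 698 and 758 CPM in 6OHA, against 618 and 677 CPM in control. The 6OHA libraries were the higher ones, though the lower of them exceeded the higher control library by little, and the gene did not pass (log2 fold change 0.17, 95% interval -0.04 to 0.37, adjusted p = 0.588 in edgeR's test). Its interval lies wholly above that of Cd33, although the difference between these genes was not itself tested. Over the alternatives the adjusted p of Siglec1 ran from 0.0793 to 0.999.

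Cd22 (12483, chromosome 7, 30865404 to 30880342) encodes an ITIM-bearing Siglec best known from B cells, which in aged mouse microglia restrains phagocytosis. It measured 56.7 and 53.5 CPM in 6OHA, against 60.4 and 68.6 CPM in control. The groups did not overlap, but replicate 1 of the control lay closer to the 6OHA libraries than to its own partner, and the gene did not pass (log2 fold change -0.23, 95% interval -0.46 to 0.00389, adjusted p = 0.472 in edgeR's test). Of its 31-base stretches 10.7% also occur in other annotated genes, 7.98% in Gm29439, so a part of its reads is uncertain. The B cell markers Cd79b, Pax5, Cr2 and Blk had 0 counts in all 4 libraries. Cd79a, another, had 0 and 0 counts in 6OHA against 5 and 5 in control, and Ms4a1 had 3 counts in control replicate 2 alone, the same direction as Cd22, and their part in its value was not tested.

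Siglec15 (620235, chromosome 18, 78042493 to 78057441) encodes a Siglec that pairs with the Tyrobp adaptor and is best known from osteoclasts. It measured 6.27 and 4.89 CPM in 6OHA, against 7.57 and 7.15 CPM in control. The 6OHA libraries were the lower ones and differed more from each other than the control libraries did. Its log2 fold change of -0.41 had an unadjusted 95% interval of -0.80 to -0.02 and did not pass over all genes (adjusted p = 0.431 in edgeR's test). With 1 library left out its value lay between -0.59 and -0.23. Of 7 osteoclast markers 5 were tested and 0 passed in edgeR's test (0 at an unadjusted p under 0.05 as well), and Calcr had 0 counts. The list summed to 173 and 186 CPM in 6OHA against 191 and 203 CPM in control, but Ocstamp (0.390 and 0.601 CPM in 6OHA against 0.210 and 0.231 CPM in control) and Mmp9 lay apart with the 6OHA libraries higher.

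Siglece (83382, chromosome 7, 43648882 to 43672044) encodes an ITIM-bearing receptor that restrains inflammatory responses of mouse microglia and neutrophils. It measured 9.35 and 8.24 CPM in 6OHA, against 9.55 and 9.65 CPM in control, with the groups narrowly apart in CPM and overlapping in FPKM. It did not pass (log2 fold change -0.13, 95% interval -0.46 to 0.20, adjusted p = 0.873 in edgeR's test). Ceacam18 and Ctu1 overlap its annotated span.

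Siglecf, the eosinophil Siglec of the mouse, had 6 and 10 counts in 6OHA libraries and 11 and 12 in control libraries, too few for the filter. These counts correspond to 0.195 and 0.286 CPM in 6OHA, against 0.256 and 0.346 CPM in control, and the groups overlapped. Siglecg, whose product binds the sialylated protein Cd24a, had 2 counts in control replicate 1 and 0 in the other 3 libraries. These lie below the limit of 3 counts. Siglech, a Tyrobp-paired receptor used as a marker of mouse microglia and plasmacytoid dendritic cells, had 0 counts in all 4 libraries, although the microglial markers P2ry12 and Tmem119 were present at 76.6 ± 7.05 and 61.7 ± 11.1 CPM in 6OHA and at 84.8 ± 1.68 and 51.5 ± 12.2 CPM in control. No difference between groups in Siglecg and Siglech was detectable at this depth.

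Neither phosphatase gene passed. Ptpn6 (15170, chromosome 6, 124720707 to 124738709), whose product SHP-1 is the main phosphatase recruited by ITIMs in blood cells, measured 139 and 145 CPM in 6OHA, against 145 and 151 CPM in control. The groups overlapped in CPM and lay apart in FPKM (54.8 and 57.0 FPKM in 6OHA against 59.7 and 61.0 FPKM in control), and the log2 fold change of -0.06 had a 95% interval of -0.25 to 0.14 (adjusted p = 0.928 in edgeR's test). Ptpn11 (19247, chromosome 5, 121130533 to 121191397), whose product also carries growth factor signals towards Ras, measured 160 and 156 CPM in 6OHA, against 160 and 147 CPM in control. Its groups overlapped too, with a log2 fold change of 0.04 and a 95% interval of -0.16 to 0.25 (adjusted p = 0.948 in edgeR's test). The direction of Ptpn11 turned on FPKM values and without control replicate 2. The FPKM ratio of Ptpn6 to Ptpn11 was 2.17 and 2.33 in 6OHA, against 2.27 and 2.57 in control, again with overlap. Of the 31-base stretches of Ptpn6, 5.78% are shared with Gm20531.

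**Figure D3:**
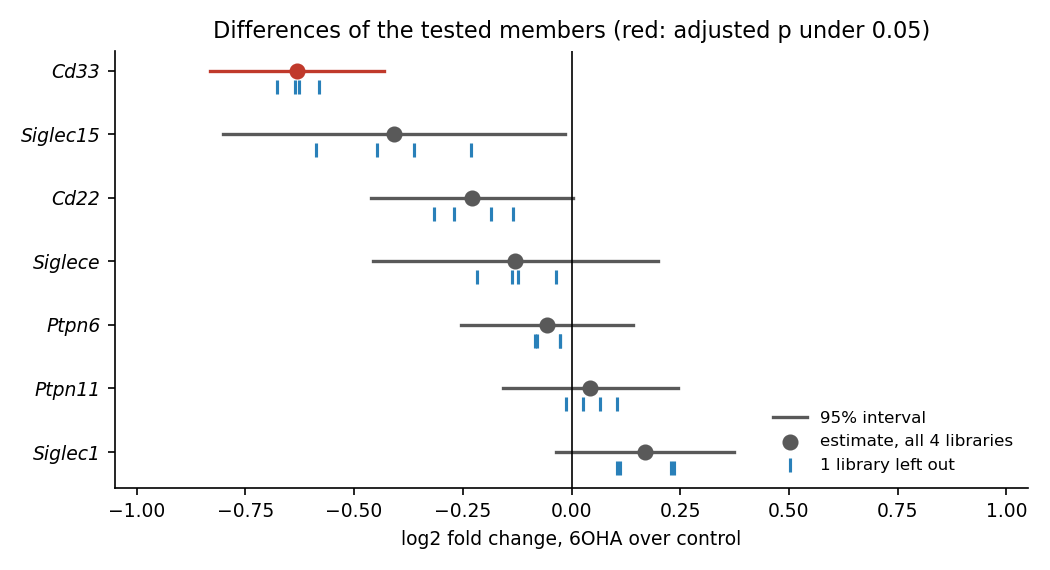
Log2 fold change, 6OHA over control, of the 7 tested members with unadjusted 95% intervals from edgeR's test; ticks below each line give the values with 1 library left out. Cd33 at -0.63 lies furthest from 0, and the ticks of Ptpn11 fall on both sides of 0.

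The genes that make, attach and remove sialic acid, and those that pass on or oppose the Siglec signal, were examined as 9 companion lists. Of their 83 genes, 82 were in the table and 67 were tested, of which 5 rose and 3 fell, 11.9% beside the 2.02% of all genes. Their median log2 fold change was -0.04. The lists were put together with earlier results of these data known. Counts of the companions depended on the test, with 4 called with no filter and 15 with a GC-content offset per library.

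Of the 8 genes of sialic acid synthesis and activation, 0 passed in edgeR's test (0 at an unadjusted p under 0.05, 0 with DESeq2 and 0 with limma-voom). The most abundant were Renbp, which encodes a renin-binding epimerase of this pathway, at 101 ± 1.37 FPKM in 6OHA and 107 ± 4.19 FPKM in control, and Nans, the sialic acid synthase gene, at 46.8 ± 0.978 FPKM in 6OHA and 52.3 ± 0.295 FPKM in control. Of the 31-base stretches of Nans 29.0% are shared with other genes, Trim14 first, so its counts are uncertain. The enzymes that attach sialic acid behaved differently from one another. St3gal5, which makes the ganglioside GM3, was 2.39-fold higher, at 41.1 and 43.2 CPM in 6OHA against 17.6 and 17.7 CPM in control. Its log2 fold change was 1.26 (SE 0.11, adjusted p = 0.000154 in edgeR's test). St8sia1, which converts GM3 to GD3, was 3.54-fold lower, at 0.552 and 1.06 CPM in 6OHA against 2.59 and 3.29 CPM in control. The fitted log2 fold change was -1.82 (SE 0.33, adjusted p = 0.0169). Both 6OHA libraries stood above both control libraries for St3gal5 and below them for St8sia1.

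St6gal1 makes the alpha 2,6-linked sialic acid that is the preferred ligand of Cd22. It was 1.53-fold higher, at 20.4 and 18.2 CPM in 6OHA against 12.4 and 12.7 CPM in control. Its log2 fold change was 0.62 (SE 0.13, adjusted p = 0.0354 in edgeR's test). Its call was lost without 6OHA replicate 1 (adjusted p = 0.261), without control replicate 1 (0.0678), with no filter (0.133) and on the FPKM or TPM scales (0.195 to 0.215). The call of St8sia1 was lost with no filter (0.0970) and on the FPKM or TPM scales (0.134 to 0.172), where its log2 difference was -0.26 on log2(FPKM + 1) and -0.50 on log2(TPM + 1). With a mean of at least 5 CPM required it was not tested. Of the 6 alpha 2,3 sialyltransferases St3gal5 was the 1 called in edgeR's test, and of 3 tested of the alpha 2,6 group St6gal1. St3gal6, another of the alpha 2,3 group, was lower, at 21.0 and 17.3 CPM in 6OHA against 30.3 and 23.8 CPM in control. Its log2 fold change of -0.50 did not pass (adjusted p = 0.160 in edgeR's test), but it was called as a fall with the GC-content offset. Of its 31-base stretches 24.8% are shared with Dcbld2. Abundant members that did not pass were St3gal1, at 20.7 ± 0.339 FPKM in 6OHA and 24.0 ± 0.194 FPKM in control, and St8sia4, which encodes a polysialyltransferase, at 9.27 ± 0.316 FPKM in 6OHA and 11.3 ± 1.58 FPKM in control. So were St6galnac4 and St6galnac6, at log2 fold changes of 0.29 and 0.20, although St6galnac4 passed with the GC-content offset (adjusted p = 0.0174). Of 3 tested genes of sialidases and their partner, 0 passed in edgeR's test (1 at an unadjusted p under 0.05, 0 with DESeq2 and 0 with limma-voom). The lysosomal sialidase gene Neu1 was at 0.27 (adjusted p = 0.363, and 0.0120 with the GC-content offset, where it passed) and the gene of its protective protein, Ctsa, at 0.16 (0.625). Ctsa shares 14.6% of its 31-base stretches with other genes.

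Among 8 tested adaptors and kinases Syk rose and the others did not pass in edgeR's test. Csk, at a log2 fold change of 0.28 (adjusted p = 0.402 in edgeR's test), was called as a rise with the GC-content offset. Src went the other way, at -0.36 (adjusted p = 0.366 in edgeR's test). Syk, the kinase that binds phosphorylated Tyrobp, was 1.66-fold higher, at 290 and 301 CPM in 6OHA against 178 and 179 CPM in control. On the log2 scale the difference was 0.73 (SE 0.09, adjusted p = 0.00114 in edgeR's test). Both 6OHA libraries were far above both control libraries. Tyrobp itself overlapped between the groups, at 357 and 429 CPM in 6OHA against 361 and 416 CPM in control (log2 fold change 0.02, adjusted p = 0.983), a value that turned negative on FPKM values and without 6OHA replicate 3 or control replicate 1. Lyn, which phosphorylates ITIMs in B cells and myeloid cells, was at -0.08 (adjusted p = 0.867). Of the 31-base stretches of Lyn 22.8% are shared with other genes, so its counts are uncertain. Of 12 other negative regulators Socs3 fell by 0.49 on the log2 scale (SE 0.11, adjusted p = 0.0418), a call lost under 9 of 15 alternatives. Ptprc, the gene of the CD45 phosphatase, and Grb2 did not pass, at -0.07 and 0.16. Grb2 shares 12.1% of its 31-base stretches with other genes.

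**Figure D4:**
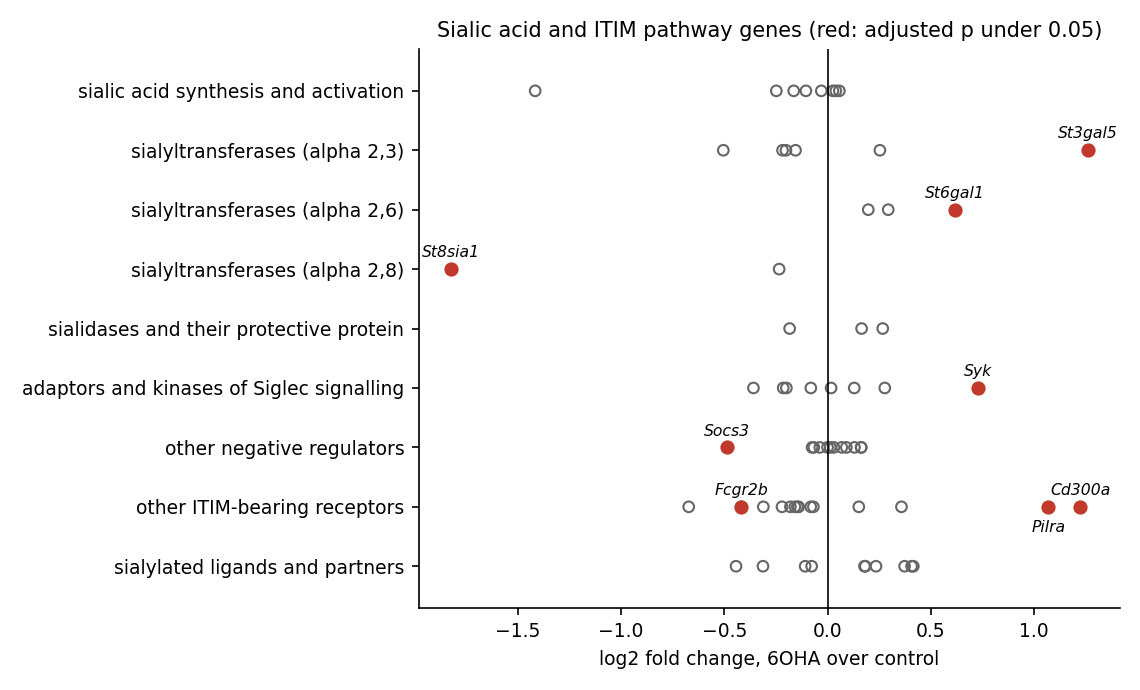
Log2 fold change, 6OHA over control, of the 67 tested genes of 9 companion lists, 1 point per gene, with genes past the threshold in red and named. St3gal5 and St8sia1 lie far apart on opposite sides of 0, as do Cd300a and Pilra against Fcgr2b.

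Of 15 tested ITIM-bearing receptors outside the Siglec family, 2 rose and 1 fell. Cd300a, a receptor for phospholipids of dying cells, was 2.33-fold higher, at 176 and 181 CPM in 6OHA against 78.0 and 74.9 CPM in control. The log2 fold change of Cd300a was 1.22 (SE 0.09, adjusted p = 9.29e-05 in edgeR's test). Pilra, which binds sialylated O-glycans, was 2.098-fold higher, at 557 and 543 CPM in 6OHA against 256 and 269 CPM in control. Its log2 fold change was 1.07 (SE 0.09, adjusted p = 9.97e-05). Of the 31-base stretches of Pilra 28.5% are shared with other genes, among them Zcwpw1 and Pilrb1, so its counts are uncertain. Of those of Cd300a 8.20% are shared, and of those of Fcgr2b 8.15%. Fcgr2b, the inhibitory Fc receptor gene, was 1.34-fold lower, at 1196 and 1129 CPM in 6OHA against 1610 and 1496 CPM in control (adjusted p = 0.0405), and its call was lost under 7 of 15 alternatives, without either 6OHA library and without control replicate 1 among them. Lilrb4a, the second most abundant receptor of the list, was at -0.22 (adjusted p = 0.392). Of its 31-base stretches 56.1% are shared with other genes, Lilr4b first, so its counts are uncertain as well.

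Of 10 sialylated ligands and partners 0 passed in edgeR's test (4 at an unadjusted p under 0.05, 0 with limma-voom and 2 with DESeq2, namely Cd24a and Lrp1). With the GC-content offset 4 passed (Apoe, Cd24a, Lrp1 and Spn), without 6OHA replicate 1 Lrp1 passed, and without control replicate 2 Spn. Apoe was at 0.18 in counts (adjusted p = 0.734, and 0.0291 with the GC-content offset) and at -0.46 on log2(FPKM + 1), with the direction turned. Selplg, a mucin-like sialylated ligand gene, was at -0.08 (adjusted p = 0.934). Mag, a myelin gene that encodes a Siglec and was put in this list, was at -0.44 (adjusted p = 0.319).

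The genes around Cd33 were examined after its value had been seen. Within 150000 bases on either side, 21 genes are annotated, Cd33 among them, of which 11 were tested. The 2 that passed were Cd33 itself, whose call had set the window, and its neighbour Zfp658. Over all tested genes 2.02% passed, 0.629% as falls, and the neighbours are too few to set against these shares. Zfp658, which encodes a zinc finger protein, lies 24777 bases beyond the 5′ limit of the Cd33 annotation, on the side where Cd33 starts. It was lower too, at 11.1 and 8.99 CPM in 6OHA against 20.3 and 20.1 CPM in control. The log2 fold change of Zfp658 was -1.02 (SE 0.14, adjusted p = 0.00309 in edgeR's test), a call lost on log2(FPKM + 1) and log2(TPM + 1) values (0.0525 and 0.0503). The next gene, Zfp719, was at 0.07 (adjusted p = 0.940), and Gm2511 on the other side at -0.20 (0.946). Gm2511 had only 85 counts over all libraries and an SE of 0.41, so its difference is loosely known. Siglece, 111457 bases away, did not pass, as given above.

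**Figure D5:**
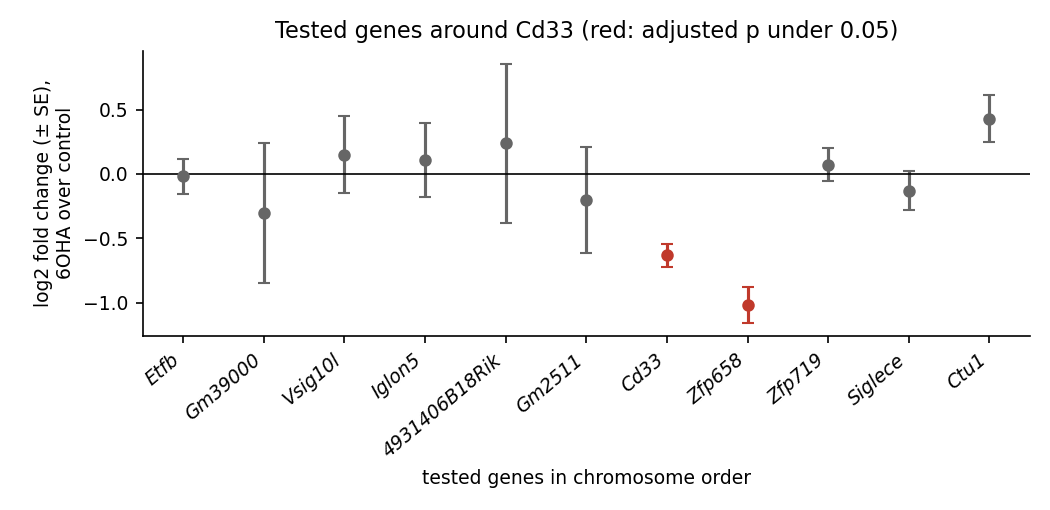
Log2 fold change (± SE), 6OHA over control, of the 11 tested genes within 150000 bases of Cd33, in their order on the chromosome but not to scale in distance. Cd33 and Zfp658 stand side by side below 0. Beside them Zfp719 lies near 0, while Gm2511, at -0.20, has a wide SE of 0.41.

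The patterns most like those of the 3 members with the smallest p were sought over the 4 libraries, as the Euclidean distance between log2 CPM values centred on each gene's mean. Only tested genes with a mean of at least 5 CPM were searched, and genes with clone, pseudogene or predicted-gene names were left out. Nearest to Cd33 were Cdca7, Lrrc20 and Mmp13, at distances of 0.0331, 0.0523 and 0.0848. Mmp13 measured 164 and 145 CPM in 6OHA, against 249.6 and 235 CPM in control, and Cdca7 14.7 and 14.2 CPM in 6OHA, against 22.7 and 22.3 CPM in control. Mmp13 and Cdca7 fell (adjusted p = 0.00482 and 0.0200 in edgeR's test) and Lrrc20, at -0.61, did not pass (0.0748). The call of Cdca7 was lost under 6 of 15 alternatives (adjusted p up to 0.138), and Lrrc20 passed under 1 of them, the GC-content offset (0.0264). Nearest to Siglec15 were Slf1, Mcm8 and Phf11d, at 0.0349 to 0.0827, and nearest to Cd22 were Iqce, Inpp5k and Cd320, at 0.0186 to 0.0244. None of these 6 genes passed in edgeR's test, with adjusted p from 0.247 to 0.721.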

How the data were processed

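Raw read counts for each gene were used as deposited, per the file headers without normalization. FPKM and TPM values had been computed by the authors and were deposited in the same table, per the file headers. Per the submitters' processing notes, the build was mm10 and the tools included StringTie 2.1.3b, HISAT2 2.1.0, Trimmomatic 0.38, SAMtools 1.9, Bowtie2 and bcl2fastq 2.20.0. How reads were counted and whether strand was used is not given in the sources used here. Libraries were made with a stranded poly-A kit, per the labels' protocols.

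After filtering with filterByExpr in edgeR 4.0.16, 14634 genes remained. Libraries were scaled by TMM, whose factors lay between 0.990 and 1.01. Groups were compared with edgeR's quasi-likelihood test, group being the only term, which was checked on simulated data. Intervals are unadjusted and come from that test. Positions came from RefSeq on GRCm38.p6, the assembly of mm10, promoter windows from the same source, and shared 31-base stretches from GENCODE M21 transcripts. A GC value was found for 92.6% of tested genes. Replicates differed beyond sampling noise, with a chi-square of 10.8 per degree of freedom between the 6OHA libraries and of 23.2 between the control libraries. Bexarotene-treated cells were not analysed here.

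The members and lists were chosen with earlier results of these data known. Named genes were all members, list members past the threshold (at most 4 a list), the 2 most abundant of each list and the 3 nearest patterns. Exceptions, named after their values were seen, are the cell type markers, among them those at 0, St3gal6, Csk, Src, Cd24a, Lrp1, Spn, Mag and the genes around Cd33. Alternatives were other scalings, filters, tests and units, a GC-content offset, a stricter threshold, and each library left out. R 4.3.3, limma 3.58.1, DESeq2 1.42.0 and Python 3.11.15 were used.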

Additional observations from a re-analysis of the deposited data

How the results depend on the processing

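Cd33 was the 1 member past the threshold under every alternative run, with log2 fold changes from -0.68 to -0.58 and adjusted p values of at most 0.0342. The 6 other tested members did not pass under any. The count of all called genes, 295, was 120 with no filter, 135 on log2(FPKM + 1), 149 on log2(FPKM + 0.1), 152 on log2(TPM + 1), 769 with the GC-content offset and 149 at an adjusted p under 0.01, and with 1 library left out it ran from 265 to 500 (without control replicate 2). The cause was not tested, apart from the stricter threshold, which lowers a count by construction. The companion count of 8 was 4 with no filter, on each of the 3 FPKM and TPM scales and at an adjusted p under 0.01, 15 with the GC-content offset, and 6 to 9 with 1 library left out. Reversed values on log2(FPKM + 1) and log2(FPKM + 0.1) were -0.0085 and -0.00875 for Ptpn11, -0.0394 in both for Tyrobp, and -0.46 in both for Apoe, which was also at -0.42 on log2(TPM + 1). With 1 library left out, values ran from -0.0137 to 0.10 for Ptpn11, -0.12 to 0.14 for Tyrobp, -0.19 to 0.0754 for Ptprc and -0.27 to 0.14 for Selplg. A library left alone in its group took its spread from the other group. No paired analysis was possible because the groups share only replicate number 1. With 2 libraries a group, differences of the size seen for Cd22 or Siglec1 did not pass.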
